A study of Mus musculus with 10 samples.

Results

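A set of 36 genes was defined by a high level in mouse leukaemia cells that had been grown to the top step of a dasatinib dose escalation. The set was chosen on measured values. A gene was kept when it reached 1 CPM (counts per 1000000 counts of the library) in each of the 3 libraries of dasatinib 16x, and when each of these libraries stood at least 1.8 times above the highest of the 4 libraries without dasatinib. Of 29955 genes listed, 10063 reached 1 CPM in each dasatinib 16x library and 44 met both thresholds. Of 10 genes that the rule leaves out by name, 8 were among the 44, so 36 remained. The difference between dasatinib 16x and the drug-free libraries is therefore the choice itself, and it is described here without a test.

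The cells were a murine Ph+ acute lymphoblastic leukaemia (ALL) line that carries BCR-ABL1 p185, the short form of the fusion kinase of Philadelphia-positive leukaemia. RNA was sequenced from the parental line without treatment (replicates A and B), from lines derived under dasatinib at the 1x step (replicates A, B and C) and at the 16x step (replicates A, B and C) of multiples of the IC90, and from 1 line each carried in DMSO vehicle to the 1x and the 16x step. Cells were replated at the next dose once they had grown out, so a dasatinib library is RNA of cells that had grown under the drug, and a derived line differs from the parental line in time in culture as well as in drug. All 10 libraries share the one parental line and its fusion kinase, and each DMSO step is a single library. The parental, DMSO 1x and DMSO 16x libraries are called drug-free below.

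Dasatinib is an inhibitor of ABL and SRC family kinases. In B-lineage ALL the BCR-ABL1 kinase keeps STAT5, RAS and PI3K signalling active and holds cells at an immature stage of B-cell development. Genes of surface receptors, adhesion, lipid transfer and secretion differ widely between blood lineages and are often low or silent in B-cell precursors.

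Total counts were 29049760 to 45813092 per library, so that 1 CPM stood for 29 to 45.8 counts. The lowest member had 234 counts over the 10 libraries. All 12 of the B-lineage precursor markers examined were in the table, and their summed level was 3840 to 3945 CPM in the drug-free libraries and 3360 to 3436 CPM at dasatinib 16x, with 1 of the 12, Ebf1, under 1 CPM in every library. By the test described below, 6 of the 12 fell at 16x and 0 rose. The recombination gene Rag1 fell from 20.4 to 76.9 CPM drug-free to 2.95 to 8.60 CPM (log2 change -3.46 ± 0.53, SE; edgeR, adjusted p = 0.00358). Rag2 fell by 2.76 ± 0.66 on the log2 scale (SE; edgeR, adjusted p = 0.0227). Both were also low in DMSO 16x. Rag1 was at 20.4 CPM there, against 74.6 and 76.9 CPM in parental A and B. Rag2 was at 4.66 CPM in DMSO 16x, against 22.9 and 25.1 CPM in parental A and B. In dasatinib 16x A, B and C Rag2 was at 4.93, 1.82 and 0.921 CPM, so A lay above DMSO 16x and the classes overlapped. The part of these markers in the levels of the members was not tested. Markers of neutrophils, of mast cells and of stromal cells summed to at most 0.0738 CPM in any library. Fewer cells of a type and less RNA per cell cannot be told apart in such bulk samples. No pair of replicates was as alike as sampling noise alone would make it.

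The members were mostly low in the drug-free cells, where 32 of 36 had a mean under 5 CPM. At dasatinib 16x their mean was 1.35 to 118 CPM with a median of 5.70 CPM, against a median of 27.9 CPM for all genes tested (CPM are not scaled to gene length). Their mean at 16x was 2.22 to 8.29 times the drug-free mean, with a median of 4.32 times, and Gpr12, Crisp1 and Odz4 had the highest of these ratios. The summed level of the 36 genes was 98.1 to 109 CPM in the drug-free libraries, 163 to 165 CPM at dasatinib 1x and 378 to 508 CPM at dasatinib 16x. Plek alone held much of this sum, and without it the range was 66.4 to 77.2 CPM drug-free, 131 to 133 CPM at 1x and 285 to 357 CPM at 16x. At the border of the rule, the lowest 16x library was 1.805 times the highest drug-free library for Sytl1, 1.82 times for Nlrp3 and 1.85 times for Glipr1 inside it. Just outside it stood the glutamate receptor gene Gria2 at 1.796 times, the transcription factor gene Sox6 at 1.79 times and the cytokine receptor gene Csf2rb2 at 1.78 times.

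**Figure D1:**
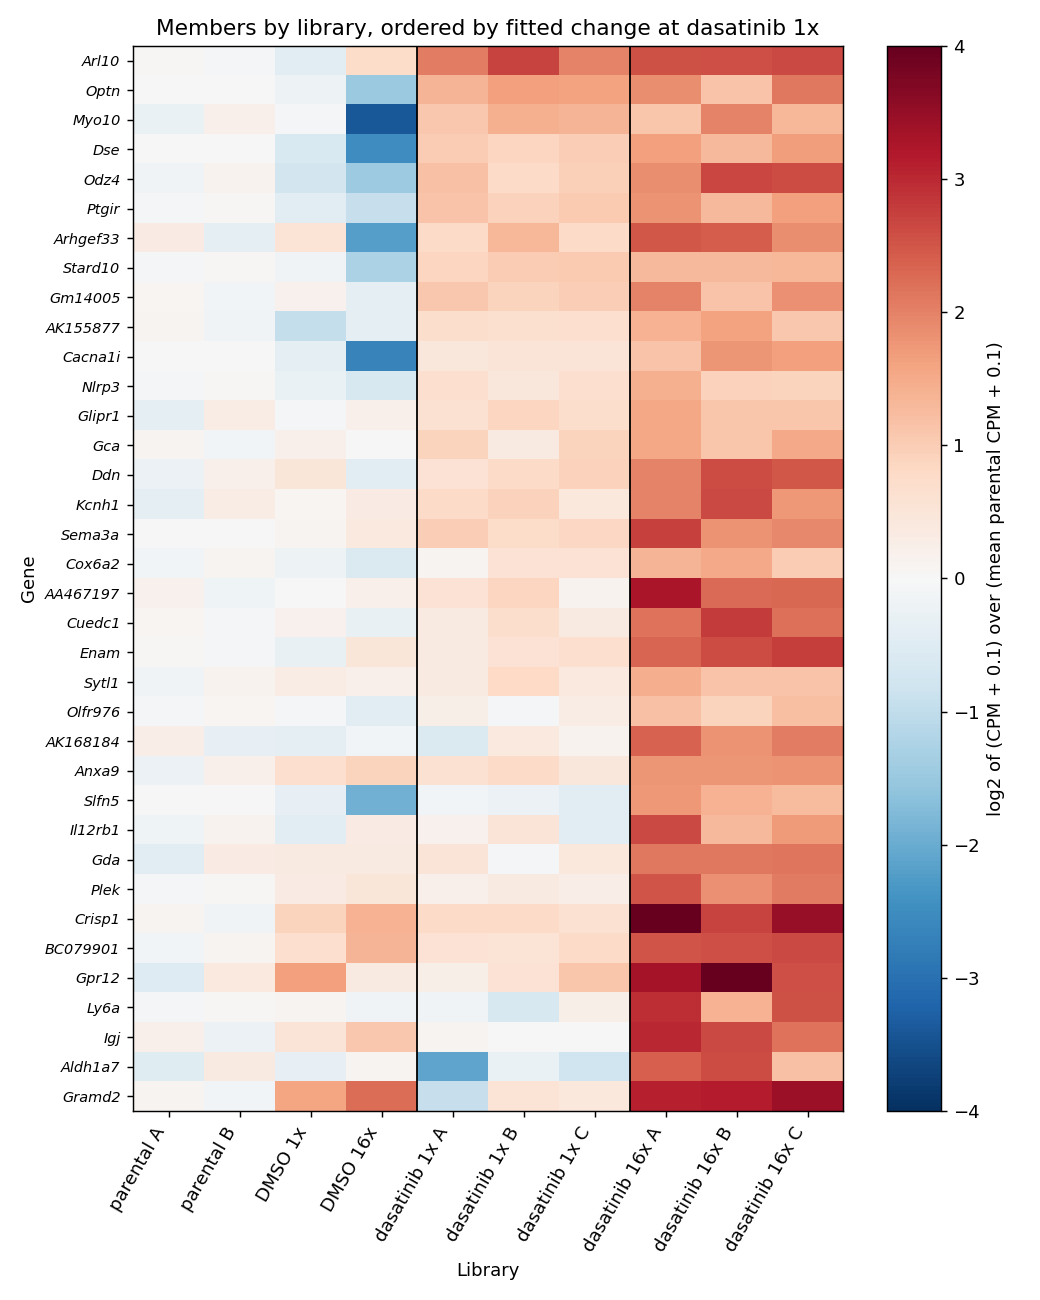
Each row is 1 of the 36 genes and each column 1 of the 10 libraries, with colour giving log2 of the CPM plus 0.1 over the mean parental CPM plus 0.1. Rows are ordered by the fitted change at dasatinib 1x, so that Arl10 (2.42) is at the top and Gramd2 (-1.61) at the bottom. All rows are high in the 3 columns of dasatinib 16x, as the rule requires, while the upper rows are raised at dasatinib 1x as well.

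The members fell into genes that already stood higher at the 1x step and genes that did not. In 19 of 36 members (52.8%) all 3 dasatinib 1x libraries were above all 4 drug-free libraries, whereas 9.71% of the 12282 genes tested showed this. No member had all 1x libraries below all drug-free ones, which 14.3% of tested genes did, and 17 overlapped. By the quasi-likelihood test of edgeR, 4 members rose at dasatinib 1x and 0 fell, where 0.822% of tested genes were called higher and 1.14% lower. The 4 were Arl10, Ptgir, Optn and Stard10. At an unadjusted p under 0.05 there were 19 members (52.8%) and 19.8% of tested genes, and the median log2 change of the 36 was 0.61 against -0.01 over all genes tested, with 32 of 36 changes positive. The drug-free libraries enter both this comparison and the rule, which takes genes that are low in all 4 of them, so these shares are not independent of the choice of members.

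The number of members called at 1x moved with single libraries. Leaving out DMSO 16x raised it to 8, and leaving out parental A lowered it to 2. It was 1 when DMSO 1x or dasatinib 1x C was left out and 0 when dasatinib 1x A or dasatinib 1x B was. The count of members above all drug-free libraries moved less, between 19 and 21 when single libraries were left out.

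**Figure D2:**
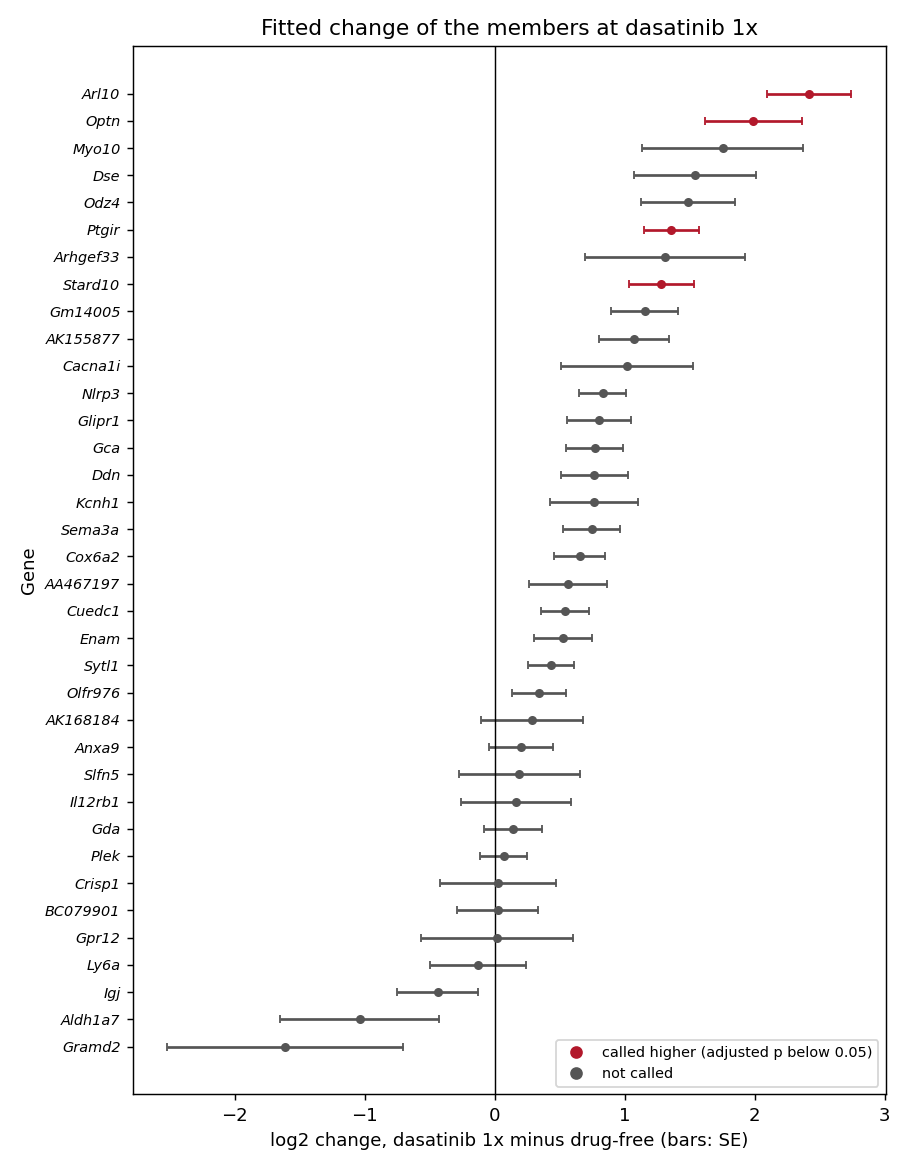
The x axis is the fitted log2 change of each of the 36 genes from drug-free to dasatinib 1x with its standard error, and genes are ordered by it on the y axis. The 4 genes in red, Arl10, Optn, Ptgir and Stard10, passed the test, and 4 genes, Ly6a, Igj, Aldh1a7 and Gramd2, lie below 0.

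Promoters of 3 of the 4 genes called at 1x, Arl10, Ptgir and Stard10, and of Plek, the member with the highest CPM and with 1x libraries inside the drug-free range, are shown so that early and late genes can be compared. The windows run from 250 bases before to 50 bases after the start of the gene in RefSeq (GRCm38.p6) and are written 5′ to 3′ on the strand of the gene. Capitals mark the letters found in a search for 10 short motifs: a STAT5 element (TTCNNNGAA) and a RUNX element (TGTGGT, here read on the other strand) in Arl10, an NRF2 antioxidant element (TGACNNNGC) in Ptgir and Plek, and a FOXO element (GTAAACA) in Stard10. Optn, the other gene called at 1x, also has a window, which is not printed. None of the 10 motifs was found in it.
Arl10, chr13:54574797-54575096, plus strand: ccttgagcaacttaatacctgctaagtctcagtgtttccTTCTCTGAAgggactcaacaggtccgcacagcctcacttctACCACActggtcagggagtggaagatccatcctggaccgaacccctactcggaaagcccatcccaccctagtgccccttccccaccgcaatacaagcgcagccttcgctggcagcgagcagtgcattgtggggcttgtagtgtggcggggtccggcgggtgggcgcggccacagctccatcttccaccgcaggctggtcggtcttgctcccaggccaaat
Ptgir, chr7:16906240-16906539, plus strand: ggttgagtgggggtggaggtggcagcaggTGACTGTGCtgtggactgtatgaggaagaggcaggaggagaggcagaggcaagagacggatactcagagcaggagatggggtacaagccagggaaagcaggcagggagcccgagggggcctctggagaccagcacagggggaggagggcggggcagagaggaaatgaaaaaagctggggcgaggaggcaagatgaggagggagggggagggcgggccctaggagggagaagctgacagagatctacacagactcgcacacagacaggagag
Stard10, chr7:101316836-101317135, plus strand: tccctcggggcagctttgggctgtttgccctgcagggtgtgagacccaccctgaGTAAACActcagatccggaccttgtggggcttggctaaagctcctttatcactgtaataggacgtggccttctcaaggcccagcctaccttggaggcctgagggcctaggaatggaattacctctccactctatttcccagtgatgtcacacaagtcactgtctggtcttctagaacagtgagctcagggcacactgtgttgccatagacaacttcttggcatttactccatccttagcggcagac
Plek, chr11:17008669-17008968, minus strand: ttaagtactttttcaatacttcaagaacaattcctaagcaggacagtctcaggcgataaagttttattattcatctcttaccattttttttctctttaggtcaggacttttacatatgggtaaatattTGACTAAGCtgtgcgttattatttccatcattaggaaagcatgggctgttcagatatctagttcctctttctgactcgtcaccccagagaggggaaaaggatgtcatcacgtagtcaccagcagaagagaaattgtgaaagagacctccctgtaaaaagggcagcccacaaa

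Windows were found for 28 of the 36 members and for 8969 of the genes tested. Some genes had more than 1 window, and a gene was counted when any of its windows held the letters. The NRF2 element was found in 9 of the 28 members (32.1%) and in 16.8% of the tested genes. For the RUNX element these were 8 (28.6%) and 15%. The STAT5 element lay in 3 (10.7% against 8.45%), the AP-1 element TGANTCA in 2 (7.14% against 5.69%) and the interferon-response element of IRF factors in 2 (7.14% against 3.63%). The MYC element CACGTG lay in 1 (3.57% against 12%), FOXO in 1 (3.57% against 3.13%) and the ETS element ACCGGAAG in 1 (3.57% against 5.81%). The CRE letters TGACGTCA and the NF-kB element were in none, against 3.76% and 0.446% of tested genes. Both strands were searched, the NRF2 and AP-1 letters can overlap, and a match is a description of letters, not of binding. Members were poorer in CpG, counted per gene in the same way. A window with an observed-to-expected CpG ratio of at least 0.6 was found for 10 of 28 members (35.7%) and 77.8% of tested genes. Among genes with a drug-free mean under 5 CPM the same figures were 10 of 24 members (41.7%) and 53.3% of 1806 tested genes. Of these 1806, 15.1% held the NRF2 element, 17.8% RUNX, 9.52% STAT5, 7.59% AP-1 and 3.93% IRF. MYC was held by 9.14%, FOXO by 3.99%, ETS by 3.16%, CRE by 2.99% and NF-kB by 0.554%. The motif shares of members given above cover members of every level.

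Members are taken by their known roles in what follows, an order made by hand from which no count is read. Those with roles in membrane traffic, lipid transfer and autophagy come first. Arl10, an ARF-like small GTPase, was at 0.344 and 0.314 CPM in parental A and B, 0.220 CPM in DMSO 1x and 0.619 CPM in DMSO 16x. It was at 1.67, 2.69 and 1.61 CPM in dasatinib 1x A, B and C and at 2.42, 2.46 and 2.57 CPM in dasatinib 16x A, B and C. The 1x libraries were all above the drug-free ones, and 1x B lay above every 16x library, so the 2 doses overlapped. The log2 change at 1x was 2.42 ± 0.32 (SE; edgeR quasi-likelihood test, adjusted p = 0.0106, higher in 3 of 3 libraries). It missed the threshold without dasatinib 1x A (adjusted p = 0.0533) or dasatinib 1x B (adjusted p = 0.0618).

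Optn encodes optineurin, an autophagy receptor. Its level was 1.1 and 1.09 CPM in the parental libraries, 0.933 CPM in DMSO 1x, 0.323 CPM in DMSO 16x, 2.97, 3.63 and 3.51 CPM at dasatinib 1x and 4.26, 2.51 and 5.10 CPM at dasatinib 16x. The 1x libraries were all above the drug-free ones and lay within the range of 16x, where library B was lowest. The log2 change at 1x was 1.99 ± 0.37 (SE; edgeR, adjusted p = 0.0348, higher in 3 of 3 libraries), and the call was lost without DMSO 1x (0.0989), parental A (0.0501) or any one of the dasatinib 1x libraries (0.126 to 0.148).

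Stard10, a START-domain protein that transfers phospholipids between membranes, was at 5.51 and 5.78 CPM in the parental libraries, 5.16 CPM in DMSO 1x and 2.29 CPM in DMSO 16x. It was at 10.4, 11.4 and 11.9 CPM at dasatinib 1x and at 14, 13.9 and 14.2 CPM at dasatinib 16x. The 3 classes of library did not overlap, and the 16x libraries were within 1.02 times of each other. The log2 change at 1x was 1.28 ± 0.25 (SE; edgeR, adjusted p = 0.0409, higher in 3 of 3 libraries). The call was lost without parental A (0.0549), DMSO 1x (0.101), any one of the dasatinib 1x libraries (0.144 to 0.164) or any one of the dasatinib 16x libraries (0.0565 to 0.0669), which bear on the estimate of spread.

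The other members of this kind showed less at 1x. Sytl1 encodes a synaptotagmin-like effector of the secretory GTPase RAB27. It was at 1.51, 1.86, 2.11 and 1.96 CPM in parental A, parental B, DMSO 1x and DMSO 16x, at 2.21, 3.01 and 2.23 CPM at dasatinib 1x and at 4.78, 3.81 and 3.83 CPM at dasatinib 16x. Each class lay above the one before it, with a log2 change at 1x of 0.43 ± 0.18 (SE; edgeR, adjusted p = 0.228). Anxa9, an annexin, lay between 1.34 and 3.07 CPM drug-free, between 2.26 and 2.84 CPM at 1x and between 5.71 and 5.84 CPM at 16x. Gramd2, a GRAM-domain protein of contacts between the endoplasmic reticulum and the plasma membrane, was at 0.103 and 0.0726 CPM in the parental libraries, 0.467 CPM in DMSO 1x, 0.780 CPM in DMSO 16x, and 1.53 to 1.91 CPM at dasatinib 16x. It had no count in dasatinib 1x A, which allows up to 0.0947 CPM (3 counts, counting error only), and was at 0.174 and 0.151 CPM in 1x B and C. Cuedc1, which carries a ubiquitin-binding CUE domain, was at 3.20, 2.85, 3.40 and 2.45 CPM in the drug-free libraries, 3.91, 4.95 and 3.92 CPM at 1x and 14, 21.8 and 14.4 CPM at 16x. Its 1x libraries were above all drug-free ones, but most of the difference lay between 1x and 16x (log2 change at 1x 0.54 ± 0.18, SE; edgeR, adjusted p = 0.168).

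Receptors on the cell surface included the G protein-coupled receptors Ptgir and Gpr12, which differed in timing. Ptgir, the receptor of prostacyclin, was at 17.6 and 18.6 CPM in the parental libraries, 13.5 CPM in DMSO 1x and 9.42 CPM in DMSO 16x. It was at 40.4, 34.7 and 37.3 CPM at dasatinib 1x and at 63.2, 44.3 and 56.9 CPM at dasatinib 16x. The 3 classes did not overlap. The log2 change at 1x was 1.36 ± 0.21 (SE; edgeR, adjusted p = 0.0187, higher in 3 of 3 libraries), and the call was lost without DMSO 1x (0.0775) and without any one of the dasatinib 1x libraries (0.0783 to 0.105).

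Gpr12, an orphan receptor, was at 0.448, 0.919, 2.33 and 0.915 CPM in parental A, parental B, DMSO 1x and DMSO 16x, and at 0.820, 1.07 and 1.58 CPM at dasatinib 1x. At dasatinib 16x it was at 7.73, 16.4 and 4.61 CPM. The 1x libraries lay inside the drug-free range (log2 change 0.02 ± 0.58, SE; edgeR, adjusted p = 0.991), and the 16x libraries differed 3.55-fold among themselves. Il12rb1, the chain shared by the receptors of interleukins 12 and 23, overlapped between 1x (0.377 to 0.846 CPM) and drug-free (0.384 to 0.727 CPM) and was at 4.02, 1.5 and 2.03 CPM at 16x. Olfr976, an olfactory receptor gene, lay at 0.484 to 0.726 CPM drug-free, 0.672 to 0.879 CPM at 1x and 1.38 to 1.72 CPM at 16x.

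Both ion channel members were low. Cacna1i, the pore subunit of a T-type calcium channel, was at 1.89, 1.89, 1.43 and 0.215 CPM in parental A, parental B, DMSO 1x and DMSO 16x, at 2.62, 2.74 and 2.76 CPM at dasatinib 1x and at 4.28, 6.59 and 6.09 CPM at dasatinib 16x. Its classes did not overlap, and DMSO 16x was far below the other drug-free libraries. Kcnh1, a voltage-gated potassium channel, was at 0.172, 0.339, 0.274 and 0.350 CPM drug-free, 0.505, 0.572 and 0.377 CPM at 1x and 1.31, 2.12 and 1.09 CPM at 16x. All its 1x libraries were above the drug-free ones. Neither passed the test at 1x (log2 change 1.02 ± 0.51, adjusted p = 0.295, and 0.76 ± 0.34, adjusted p = 0.250; SE, edgeR).

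Other genes of the same families were called in both directions. Of the 54 other ion channel genes tested, 5 rose and 9 fell at dasatinib 16x against drug-free, where 7.79% of all tested genes were called higher and 8.33% lower, and their median log2 change was -0.17. Cacna1h, another T-type calcium channel subunit, fell from 2.23 to 3.57 CPM in the drug-free libraries to 0.0753 to 0.174 CPM at 1x and to 0, 0.0492 and 0.0945 CPM at 16x (edgeR, adjusted p = 0.00429 at 1x and 3.34e-04 at 16x). Trpc4, a cation channel, fell by 1.41 ± 0.19 on the log2 scale (SE, adjusted p = 0.00196) and Kcna5, a potassium channel, fell by 2.34 ± 0.46 (adjusted p = 0.0104) at 16x, while P2rx4, an ATP-gated channel, rose by 0.57 ± 0.10 (adjusted p = 0.00612; all edgeR). In a list of 41 tested G protein-coupled receptors that holds no member, 8 rose and 5 fell at 16x, with a median log2 change of 0.04. Of the 35 other cytokine receptor genes tested beside Il12rb1, 5 rose and 4 fell, with a median of 0.01.

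**Figure D3:**
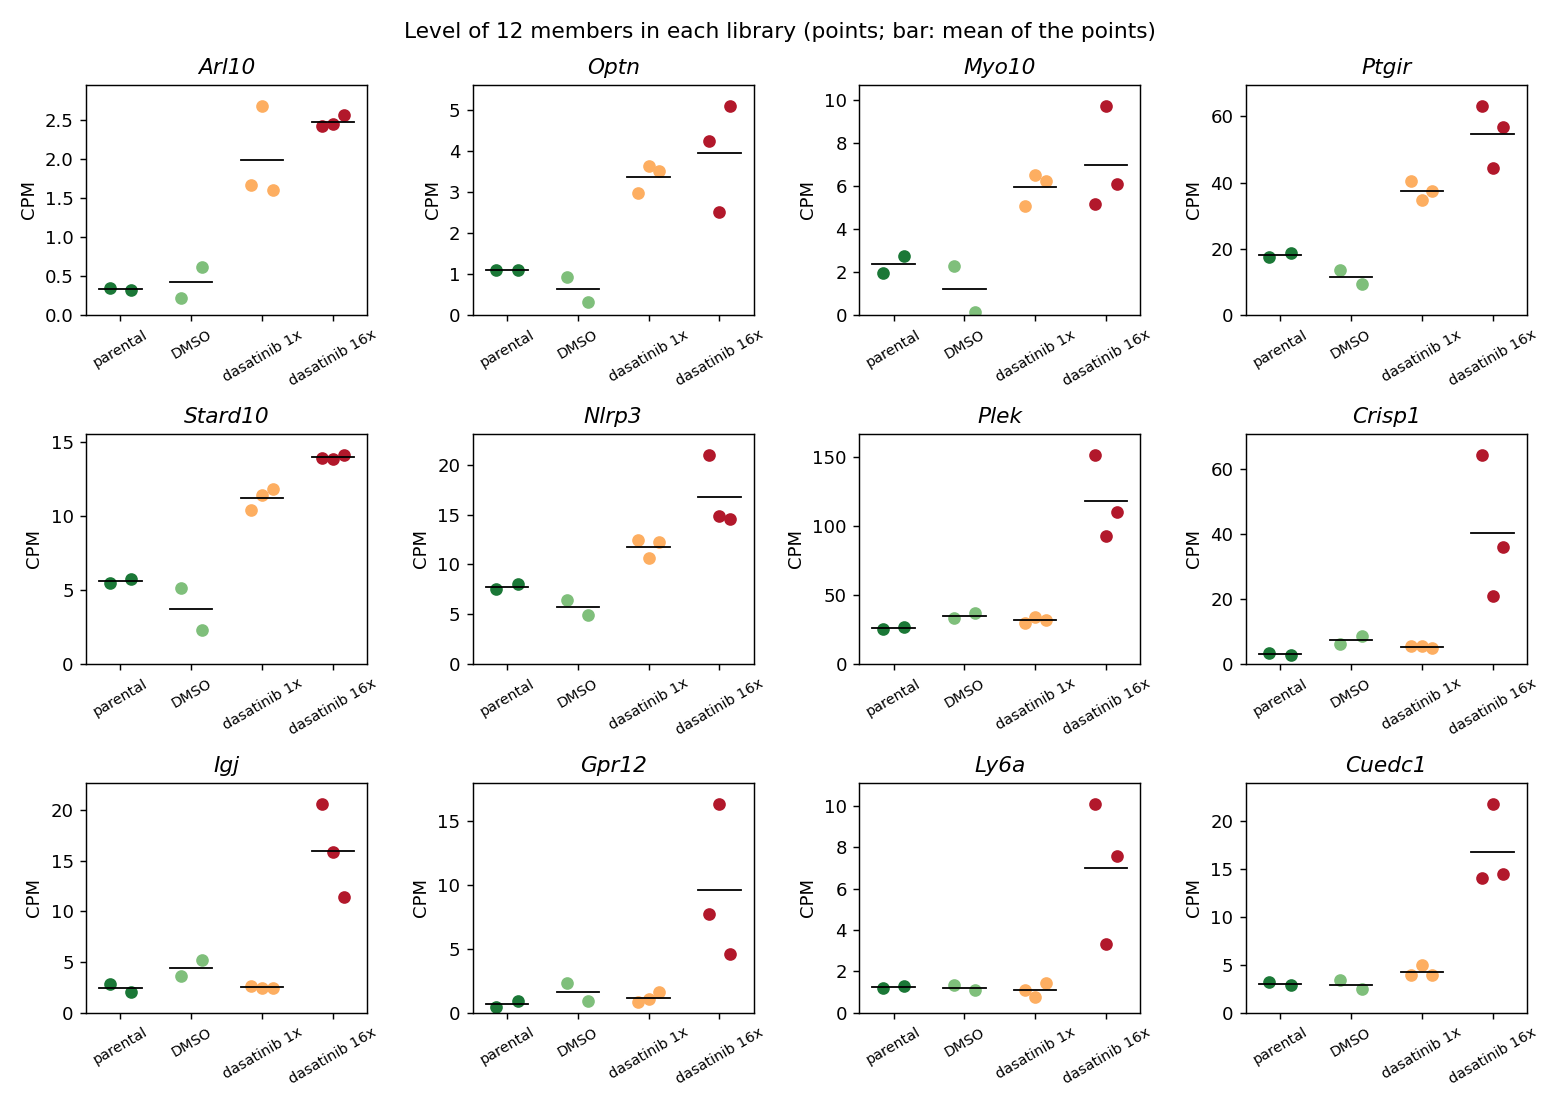
Each panel shows 1 gene, with CPM on a linear y axis from 0, a point for each library and a bar at the mean of the points of a class (2 parental, 2 DMSO, 3 dasatinib 1x, 3 dasatinib 16x). Arl10, Optn and Myo10 overlap between 1x and 16x, Ptgir, Stard10 and Nlrp3 climb at each step, and Plek, Crisp1, Igj, Gpr12 and Ly6a stay in or near the drug-free range until 16x.

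Several members are known from blood and immune cells. Plek encodes pleckstrin, a protein kinase C substrate of platelets and leukocytes. It was at 25.4 and 26.9 CPM in the parental libraries, 33.0 CPM in DMSO 1x, 36.9 CPM in DMSO 16x, 29.9, 33.6 and 31.4 CPM at dasatinib 1x, and 152, 92.6 and 110 CPM at dasatinib 16x. The 1x libraries lay inside the drug-free range (log2 change 0.07 ± 0.18, SE; edgeR, adjusted p = 0.858), and 16x A was the highest. Megakaryocyte markers, which would mark platelet-forming cells, summed to 0.714 to 1.02 CPM drug-free, 0.678 to 2.07 CPM at 1x and 0.969 to 1.55 CPM at 16x, with 5 of 6 under 1 CPM in every library. Of these, Gp9, a platelet glycoprotein gene, rose from 0 to 0.138 CPM drug-free to 0.351 to 0.846 CPM at 1x (edgeR, adjusted p = 0.0450) and 0.283 to 1.07 CPM at 16x (adjusted p = 0.0105). Their part in the level of Plek was not tested.

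Nlrp3, the sensor of an inflammasome, was at 7.47, 7.98, 6.45 and 4.90 CPM in parental A, parental B, DMSO 1x and DMSO 16x, at 12.5, 10.6 and 12.3 CPM at dasatinib 1x and at 21.0, 14.8 and 14.5 CPM at dasatinib 16x. The classes did not overlap, and the change at 1x came just short of the threshold (log2 change 0.83 ± 0.18, SE; edgeR, adjusted p = 0.0512). It passed without DMSO 16x (0.0268) and without parental B (0.0490). Monocyte and macrophage markers, the cells best known for Nlrp3, summed to 11 to 16.1 CPM drug-free, 11 to 11.6 CPM at 1x and 16.8 to 19.2 CPM at 16x, with 4 of 8 under 1 CPM in every library and none of the 5 tested called at 16x. Their part in the result was not tested.

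Igj encodes the J chain, which joins units of polymeric IgM and IgA and is a marker of plasma cells. It was at 2.82 and 2.06 CPM in the parental libraries, 3.57 CPM in DMSO 1x, 5.22 CPM in DMSO 16x, 2.65, 2.44 and 2.38 CPM at dasatinib 1x, and 20.6, 15.8 and 11.4 CPM at dasatinib 16x. The 1x libraries lay inside the drug-free range. None of the other 5 plasma cell markers was called higher at 16x. Sdc1 (syndecan-1) fell by 0.85 ± 0.20 on the log2 scale at 16x (SE; edgeR, adjusted p = 0.0217), Irf4 and Xbp1 had adjusted p of 0.0678 and 0.858, Prdm1 stayed under 1 CPM, and Tnfrsf17 had no count in any dasatinib library.

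Ly6a encodes Sca-1, a GPI-linked surface protein used to mark mouse stem cells and activated lymphocytes. It was at 1.17, 1.28, 1.32 and 1.1 CPM in the drug-free libraries, 1.1, 0.747 and 1.46 CPM at 1x and 10.1, 3.35 and 7.61 CPM at 16x. The 1x and drug-free libraries overlapped, and the lowest 16x library, B, was still above them. T cell markers summed to 125 to 187 CPM drug-free and 252 to 269 CPM at 16x, with 7 of 10 under 1 CPM in every library. Most of the sum was the adhesion protein gene Cd2, which was already at 106 to 162 CPM in the drug-free libraries. Cd2 rose by 0.87 ± 0.13 at 16x on the log2 scale (SE; edgeR, adjusted p = 0.00331), whereas the surface receptor gene Cd5 fell by 1.23 ± 0.34 (adjusted p = 0.0353). The defining genes Cd3e, Cd3d, Cd3g, Cd4 and Cd8a were at or near 0, and the part of these markers in the levels of Ly6a and Il12rb1 was not tested. Slfn5, an interferon-inducible schlafen gene, overlapped between drug-free (0.108 to 0.688 CPM) and 1x (0.477 to 0.631 CPM) and lay at 1.8 to 2.49 CPM at 16x. Gca, a calcium-binding protein first known from neutrophils, separated all 3 classes at 0.580 to 0.741 CPM drug-free, 0.846 to 1.26 CPM at 1x and 1.48 to 2.05 CPM at 16x. AA467197, the gene around the microRNA gene Mir147, was at 0.861, 0.653, 0.768 and 0.888 CPM drug-free, 1.17, 1.44 and 0.854 CPM at 1x and 8.05, 3.99 and 4.13 CPM at 16x. Its lowest 16x library was 4.49 times its highest drug-free one, the widest such gap of the 36.

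Genes of guidance, adhesion and cell shape included several early members. Sema3a, a secreted semaphorin that repels axons and acts on immune cells, was at 3.89, 3.77, 4.12 and 5.09 CPM in parental A, parental B, DMSO 1x and DMSO 16x, at 7.67, 6.45 and 6.85 CPM at dasatinib 1x and at 25.8, 13.7 and 14.9 CPM at dasatinib 16x. Odz4, the transmembrane adhesion protein teneurin-4 (Tenm4 in RefSeq), was at 1.62, 1.98, 1.04 and 0.592 CPM drug-free, 4.16, 3.16 and 3.56 CPM at 1x and 6.72, 12.1 and 11.5 CPM at 16x. Both separated the 3 classes without overlap, with log2 changes at 1x of 0.75 ± 0.22 (adjusted p = 0.122) and 1.49 ± 0.36 (adjusted p = 0.0732; SE, edgeR).

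Myo10, an unconventional myosin that carries cargo to the tips of filopodia, was at 1.96, 2.76, 2.28 and 0.135 CPM in parental A, parental B, DMSO 1x and DMSO 16x, at 5.08, 6.49 and 6.23 CPM at dasatinib 1x and at 5.17, 9.72 and 6.07 CPM at dasatinib 16x. Its 1x and 16x libraries overlapped, and DMSO 16x was far below the other drug-free libraries. With DMSO 16x in the class the change at 1x did not pass (log2 change 1.75 ± 0.62, SE; edgeR, adjusted p = 0.181), and without it the adjusted p was 0.0107. Arhgef33 lay at 0.0269 to 0.741 CPM drug-free, 0.879 to 1.37 CPM at 1x and 1.98 to 3.17 CPM at 16x. Ddn, which encodes dendrin of kidney podocytes and neurons, was at 0.998, 1.40, 1.73 and 0.861 CPM drug-free, 1.83, 2.12 and 2.36 CPM at 1x and 5.00, 7.85 and 7.21 CPM at 16x. In both, the 3 classes did not overlap.

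Of 21 other tested axon guidance and ephrin genes, 2 rose and 4 fell at 16x, with a median log2 change of -0.12, where 7.79% of all tested genes rose and 8.33% fell.

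Secreted and matrix proteins differed in level and time. Crisp1, a cysteine-rich secretory protein known from the epididymis, was at 3.41 and 2.85 CPM in the parental libraries, 5.96 CPM in DMSO 1x, 8.45 CPM in DMSO 16x, 5.43, 5.40 and 4.82 CPM at dasatinib 1x and 64.4, 21.0 and 35.9 CPM at dasatinib 16x. The 1x libraries lay inside the drug-free range, and the 16x libraries spanned 3.06-fold with A highest. Glipr1, which shares the CAP domain with Crisp1, was lower and earlier, at 0.379, 0.677, 0.494 and 0.619 CPM drug-free, 0.852, 1.05 and 0.929 CPM at 1x and 1.75, 1.25 and 1.25 CPM at 16x. Enam, the tooth enamel matrix protein enamelin, was at 0.792, 0.726, 0.604 and 1.1 CPM drug-free, 1.01, 1.17 and 1.26 CPM at 1x and 4.19, 5.12 and 5.72 CPM at 16x. For Enam the 1x and drug-free libraries overlapped through DMSO 16x.

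Enzymes were split in time as well. Dse, the epimerase that makes dermatan sulfate, lay at 0.296 to 2.13 CPM drug-free, 3.98 to 4.45 CPM at 1x and 5.36 to 7.06 CPM at 16x, with no overlap. Cox6a2, the muscle form of a cytochrome c oxidase subunit, was at 3.20, 3.75, 3.02 and 2.29 CPM drug-free, 3.72, 5.25 and 5.27 CPM at 1x and 9.08, 10.0 and 7.21 CPM at 16x. Gda, a guanine deaminase, was at 0.998, 1.74, 1.78 and 1.8 CPM drug-free, 2.02, 1.32 and 1.86 CPM at 1x and 6.24, 6.27 and 6.43 CPM at 16x. Cox6a2 and Gda overlapped between 1x and drug-free, and Gda was at nearly one level over the 16x libraries. Aldh1a7, an aldehyde dehydrogenase and near copy of Aldh1a1, from which its reads may not be separable, lay at 0.310 to 0.629 CPM drug-free, 0.0316 to 0.373 CPM at 1x and 1.18 to 3.37 CPM at 16x.

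The remaining members are a long non-coding RNA and transcripts that were not matched to RefSeq. Gm14005, named Morrbid in RefSeq, lies beside Bcl2l11, the gene of the pro-apoptotic protein BIM, which it is known to restrain in myeloid cells. It lay at 0.431 to 0.659 CPM drug-free, 1.14 to 1.33 CPM at 1x and 1.38 to 2.58 CPM at 16x (log2 change at 1x 1.15 ± 0.26, SE; edgeR, adjusted p = 0.0553). AK155877 lay at 0.357 to 0.861 CPM drug-free, 1.27 to 1.33 CPM at 1x and 1.77 to 2.58 CPM at 16x. Both separated the 3 classes. BC079901 was at 2.44, 2.85, 4.31 and 6.94 CPM in parental A, parental B, DMSO 1x and DMSO 16x, 3.98, 3.93 and 4.57 CPM at 1x and 15.7, 16.3 and 17.2 CPM at 16x. AK168184 was at 0.310, 0.169, 0.165 and 0.215 CPM drug-free, 0.126, 0.348 and 0.276 CPM at 1x and 1.66, 1.08 and 1.30 CPM at 16x. Both overlapped between 1x and drug-free.

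Set against the 1x step, the 16x libraries were all higher for 33 of 36 members, and 15.8% of tested genes showed this. The rule used the 16x libraries, so nothing is read from that count. Arl10, Optn and Myo10 were the 3 that overlapped, with means at 16x of 1.25, 1.17 and 1.18 times those at 1x. Late members had higher ratios, with 7.75 times for Crisp1, 8.26 times for Gpr12, 6.41 times for Igj, 6.37 times for Ly6a and 3.74 times for Plek. Ratios of 15.4 for Gramd2 and 11.8 for Aldh1a7 rest on 1x levels of a few counts.

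The vehicle line of the 16x step differed from the parental line in many genes, and in the members about as often as in the rest. Against the parental libraries, 4 members were higher in DMSO 16x (14.7% of all genes tested were) and 9 were lower (16.2% were), by the edgeR test at an adjusted p under 0.05. Together these were 13 of 36 members (36.1%) against 30.9% of tested genes. DMSO 16x was the lowest of the 4 drug-free libraries for 16 members (44.4%, against 38.4% of tested genes) and the highest for 13 (36.1% against 35.1%). This comparison shares its libraries with the drug-free class of the rule, and DMSO 16x is a single library that is assumed to vary like the other groups, so its p-values and SEs rest on the spread of those groups. The 13 calls became 8 without parental B, 16 without dasatinib 16x A, which bears on the estimate of spread, and 7 by limma-voom.

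Among the lower genes, Myo10 fell by 4.10 ± 0.62 on the log2 scale (SE, adjusted p = 7.58e-04), Cacna1i fell by 3.10 ± 0.39 (adjusted p = 8.30e-05) and Dse fell by 2.82 ± 0.32 (adjusted p = 3.46e-05). Stard10 fell by 1.29 ± 0.15 (adjusted p = 4.40e-05), Optn fell by 1.74 ± 0.50 (adjusted p = 0.0199) and Ptgir fell by 0.94 ± 0.23 (adjusted p = 0.0217). Arhgef33, Slfn5 and Odz4 were the other 3. Over 14 other settings the calls of Ptgir, Optn and Odz4 were kept in 10, 11 and 12, with adjusted p of up to 0.145, 0.188 and 0.332. The comparison at dasatinib 1x uses DMSO 16x in its drug-free class, so the changes at 1x given above and those in DMSO 16x share a library and are set side by side only: 1.75 at 1x for Myo10, 1.02 for Cacna1i, 1.54 for Dse, 1.28 for Stard10, 1.99 for Optn and 1.36 for Ptgir.

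Higher in DMSO 16x were BC079901 (log2 change 1.39 ± 0.16, adjusted p = 3.37e-05), Igj (1.12 ± 0.32, adjusted p = 0.0269), Anxa9 (0.92 ± 0.24, adjusted p = 0.0116) and Gramd2 (3.15 ± 0.75, adjusted p = 0.00661; SE, edgeR). The changes of these 4 at dasatinib 1x were 0.02, -0.44, 0.20 and -1.61. The call of Gramd2 was lost without parental B (adjusted p = 0.0738) and that of Anxa9 without parental A (0.0806), and that of Igj was kept in 12 of 14 settings (adjusted p of up to 0.237). Against DMSO 16x alone, the dasatinib 16x mean of Igj (16.0 CPM) compared with 5.22 CPM, that of BC079901 (16.4 CPM) with 6.94 CPM, that of Anxa9 (5.75 CPM) with 3.07 CPM and that of Gramd2 (1.67 CPM) with 0.780 CPM. In DMSO 1x against the parental libraries, BC079901 was the 1 member called higher (log2 change 0.70, edgeR, adjusted p = 0.0272, where 3.31% of tested genes were) and 0 were lower (2.87% were). At an unadjusted p under 0.05 there were 5 members (13.9%) in that comparison and 22% of tested genes, DESeq2 called 0, and no call was left without parental A or without parental B.

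The rule sets a minimum for every dasatinib 16x library but no maximum, and it used these values, so the spread among the 3 libraries is given as a description. The highest 16x library was a median of 1.54 times the lowest over the members, whose 1x libraries had a median of 1.28 times. For the 15 members with a mean under 5 CPM at 16x the median was 1.46 times, against 1.33 times over the 1143 genes of that level that reached 1 CPM in each 16x library. For the 18 members of 5 to 20 CPM it was 1.55 times, against 1.16 times over 1997 genes. At 16x, 7 members spanned at least 2-fold: Gpr12, Crisp1, Ly6a, Aldh1a7, Il12rb1, Optn and AA467197. Of these, 3 were under 5 CPM, where 7.61% of genes did so, and 3 were at 5 to 20 CPM, where 4.41% did. Library A was highest for 16 members, B for 10 and C for 10, and B was lowest for 16. Crisp1, Ly6a, Il12rb1, AA467197, Sema3a and Plek were highest in A, whereas Gpr12, Cuedc1, Myo10, Odz4 and Aldh1a7 were highest in B. Stard10, Anxa9, Gda, Arl10 and BC079901 were within 1.1 times across the 3 libraries. The part of depth or of selection by the rule in this spread was not tested.

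**Figure D4:**
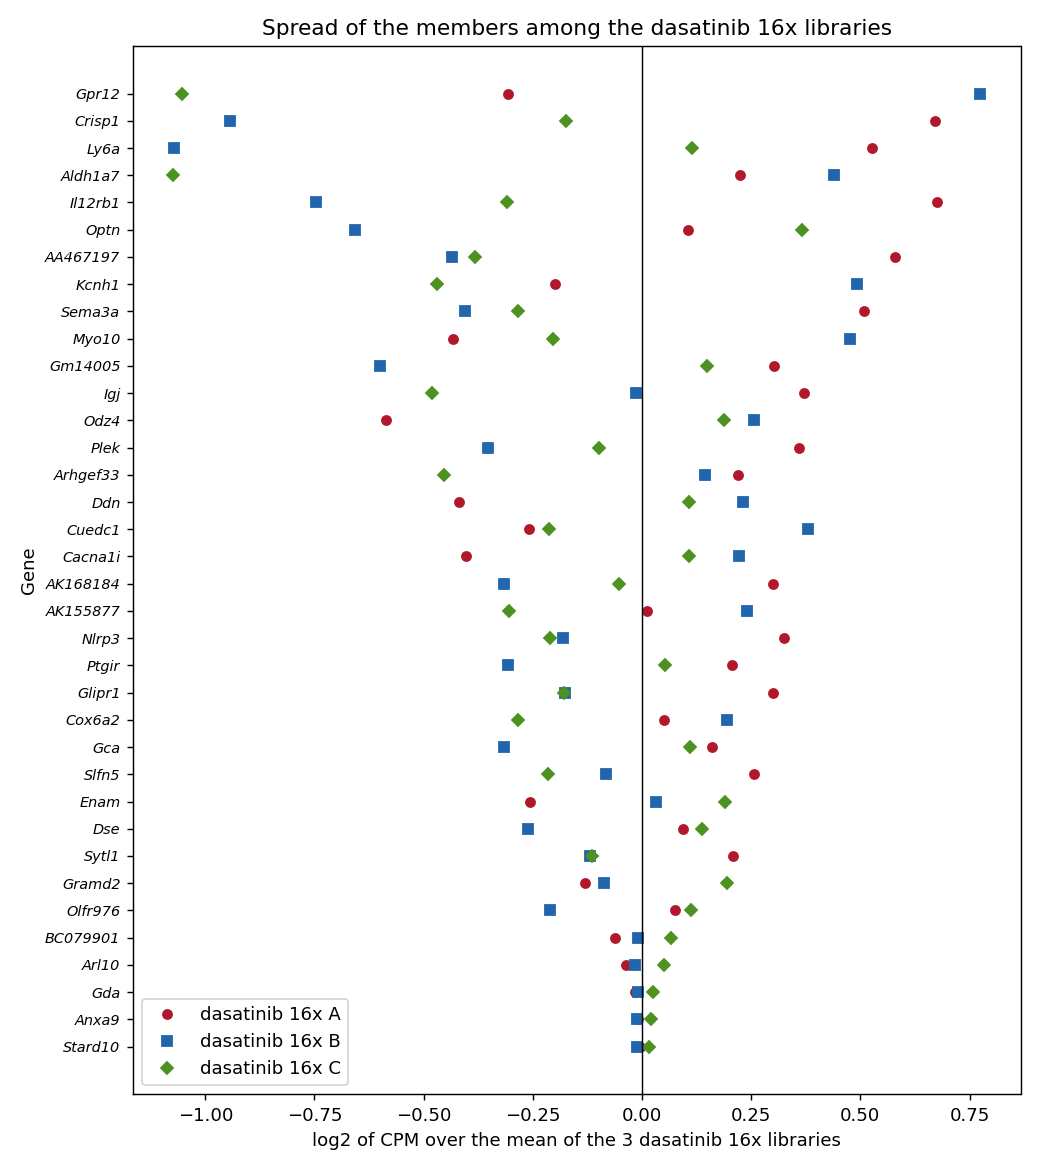
The x axis is log2 of the CPM of each dasatinib 16x library (A circles, B squares, C diamonds) over the mean of the 3, and the genes on the y axis are ordered by the ratio of their highest to their lowest library. Gpr12 at the top spans 3.55-fold with B highest, Crisp1 spans 3.06-fold with A highest, and Stard10 at the bottom spans 1.02-fold.

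Levels per kilobase used the merged GENCODE exons of each gene, found for 33 of 36 members. The highest mean levels at dasatinib 16x were those of Crisp1 (28.6 CPM per kb), Plek (26.3), Ptgir (16.4) and Cox6a2 (12.9). In the drug-free libraries the same 4 were at 3.65, 6.81, 4.44 and 4.51 CPM per kb, and Plek led.

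The members were spread over the genome, with 4 each on chromosomes 2, 5, 7, 11 and 15 of the 33 placed and none on chromosomes 6, 12, 14, 16, 18 or X. Igj and Enam are neighbours on chromosome 5, and Utp3, a nucleolar protein gene on the other side of Igj, rose by 0.54 on the log2 scale at 16x (adjusted p = 7.49e-04). Of 40 tested neighbours that are not members, 5 rose and 2 fell at 16x by edgeR, where 7.79% of all tested genes rose and 8.33% fell, so these counts are near the background. Crisp3 beside Crisp1 rose by 1.03 (adjusted p = 0.0463), from 2.38 to 6.49 CPM drug-free to 7.18 to 8.22 CPM. Olfr975 beside Olfr976 rose by 1.44 (adjusted p = 0.0401) at levels of 0.283 to 0.566 CPM. Bcl2l11 beside Gm14005 rose by 0.25 (adjusted p = 0.00865), from 67.2 to 73.2 CPM drug-free to 78.7 to 83.9 CPM, and Arap1 beside Stard10 rose by 0.37 (adjusted p = 0.00220). Slfn9 beside Slfn5 fell by 0.37 (adjusted p = 0.00344) and Mcm10 beside Optn fell by 0.21 (adjusted p = 0.00468). Of the members, 4 overlap a tested gene: Cuedc1 overlaps Mrps23, Anxa9 overlaps Lass2 and Fam63a, Arhgef33 overlaps Sos1 and Glipr1 overlaps Krr1. Of these partners, Lass2 rose by 0.24 at 16x (adjusted p = 0.00945) and the others did not pass the test, and reads of overlapping genes cannot be told apart where the strand setting is unknown.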

How the data were processed

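RNA of 10 libraries was measured by sequencing. The counts per gene were deposited by the authors as whole numbers, without normalization. Per the submitters' processing notes, CASAVA 1.7.0, Trimmomatic 0.33, TopHat2 2.0.12, BWA 0.7.10, SAMtools and HTSeq 0.6.1 were used with the build mm9. The strand setting is not given in the sources used here. The dasatinib titles say biological replicate and the parental ones replicate. Nothing says that these were separate cultures, so the p-values stand for spread among these libraries, which may be technical.

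CPM were computed on the total of each library. Tests were quasi-likelihood F tests in edgeR 4.0.16 (R 4.3.3, robust fit) with TMM factors, on the 12282 genes that passed filterByExpr at a minimum count of 10, adjusted by Benjamini and Hochberg over all of them at 0.05. The comparison of dasatinib 1x or 16x with drug-free used a fit of 3 classes (biological coefficient of variation 15.3%, 7 residual degrees of freedom), and the DMSO lines were compared with the parental line in a fit of 5 groups (7.27%, 5 degrees of freedom). Standard errors were the log2 change over the square root of F. The scripts were tested on simulated data with one fixed spread for all genes and changes planted only above a minimum count. The lowest members lie below that count, so the simulation does not cover them.

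The members and lists were chosen with earlier results of these data known. Values in every library were given for the 12 members with the highest mean CPM at 16x, the 10 with the highest ratio of lowest 16x to highest drug-free CPM, those called at 1x, those next to the threshold and those of a list with at least 2 members, and up to 4 other genes of such a list were named by adjusted p at 16x. The 5 members with code-like names, among them Gm14005 and the protein-coding gene AA467197, fall outside that rule. They were named, like the neighbouring genes, after their values were seen, as were the values of Ly6a, Myo10 and Il12rb1. Promoters and neighbours came from RefSeq (GRCm38.p6), matched by symbol. Exon lengths came from the GENCODE mouse annotation, with all exons of a gene name merged. Alternatives were DESeq2 1.42.0, limma-voom (limma 3.58.1), RLE scaling, testing without the filter, other reference libraries, a 1.5-fold threshold, a replicate block, other limits of the rule, and each library left out in turn.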

Additional observations from a re-analysis of the deposited data

Results flagged for a closer look

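In 1 of the 36 members the level in 1 drug-free library stood far from the other 3 by Dixon's test. Gda was at 0.998 CPM in parental A and at 1.74 to 1.8 CPM in parental B, DMSO 1x and DMSO 16x. Chance flags about 1 in 20 such groups, and 36 were examined.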

How the results depend on the processing

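Of the members, 4 were called higher at dasatinib 1x, against 11 by DESeq2, 7 with the parental libraries alone as reference, 15 with the DMSO libraries alone, 1 at a threshold of 1.5-fold and 0 to 8 with single libraries left out; with the DMSO libraries alone 3 were called lower, and 0 with any single library left out. With the replicate letter as a block, 0 members were called higher at 1x and 0 in DMSO 1x against parental. Of all genes, 720 were called higher and 610 lower at 16x with the block. For 1x and 16x the block also gave the DMSO libraries, which carry no letter, a term of their own. The reference there was in effect the parental libraries, so the letters and the reference changed together. Same letters correlated at 0.0647, 0.0273 and 0.0517 between 1x and 16x, so the letters were not taken as pairs, although each 1x library correlated best with the 16x library of its own letter. The 13 calls between DMSO 16x and parental were 7 by limma-voom and 8 to 16 with single libraries left out, and the 1 call in DMSO 1x was 2 without the filter, 0 by DESeq2, 0 by limma-voom and 0 to 2 with single libraries left out. Leaving out DMSO 16x or DMSO 1x gives no value for its own comparison.

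Over all genes, 957 were called higher and 1023 lower at 16x. These were 486 and 509 with only the libraries of both classes, 1683 and 1569 against the parental libraries alone, 2413 and 2105 against the DMSO libraries alone, 60 and 121 at a threshold of 1.5-fold, and 509 to 1421 and 496 to 1344 with single libraries left out. The rule gave 75 genes at a ratio of 1.5, 15 at 5 CPM, 38 to 63 with single libraries left out, and, with drug-free libraries of 1 kind, 131 (parental) and 70 (DMSO). The alternatives for 16x against drug-free and against 1x and the rule with 1 kind of drug-free library were chosen after seeing the data. Members above all drug-free libraries at 1x were 19 to 21, and above all 1x libraries at 16x 33 to 34, with single libraries left out. The log2 changes of the 4 genes called at 1x kept their sign throughout, and the cause of the other differences was not tested. Depth limits the members under 1 CPM, whose levels rest on few counts.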
